A study of Homo sapiens with 9 samples.

Results

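Aurora kinases drive the building of the mitotic spindle and the sorting of chromosomes, and each depends on binding partners that place it in the cell and switch it on. The RNA of 8 such genes was followed in HEK293T cells that overexpressed the polo-like kinase PLK2. The 8 genes were chosen by name as Aurora A (AURKA) with its spindle partners TPX2, BORA and HMMR, and Aurora B (AURKB) with the other subunits of the chromosomal passenger complex, INCENP, BIRC5 and CDCA8. The choice was made with earlier results of these data known. These genes are 8 of 17083 genes in the deposited table, and all 8 passed the filter on low counts that left 12924 genes for testing. HEK293T is a human embryonic kidney line, labelled wild type and epithelial here, in which the SV40 large T antigen binds p53 and the RB family of cell cycle repressors, and all groups share it. The 9 libraries comprise 3 of cells with the FLAG vector alone (Vector), 3 of cells overexpressing PLK2-FLAG (PLK2) and 3 of cells overexpressing PLK2(D223N)-FLAG (PLK2(D223N)), whose substitution lies in the kinase domain. The series design calls the 3 libraries of a group biological replicates, and nothing further is said of separate cultures, so p-values measure the spread between these libraries. The sources used here state neither the amount of plasmid nor the time after its delivery, and kinase activity was not analysed here.

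In the cell, Aurora A works at centrosomes and spindle poles. BORA helps it to activate the kinase PLK1 before mitosis, TPX2 binds it on spindle microtubules and locks it in an active shape, and HMMR (also called RHAMM) brings TPX2 to the poles. Aurora B works at centromeres and later at the midzone as part of the chromosomal passenger complex, in which INCENP is the scaffold that binds and activates the kinase, and BIRC5 (survivin) and CDCA8 (borealin) carry it to chromatin. Their RNAs rise towards the G2 and M phases of the cell cycle, where the DREAM and MMB-FOXM1 complexes act on the CHR, a promoter element read as TTTGAA or TTCGAA, often near CCAAT boxes bound by NF-Y.

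Totals ran from 14288165 to 16510186 estimated counts per library. PLK2 RNA followed the labels, with 2.83 to 4.09 CPM in Vector libraries, 10680 to 13978 CPM in PLK2(D223N) libraries and 21489 to 26239 CPM in PLK2 libraries, so the construct with the intact kinase was also the more abundant RNA. CPM is a gene's share of its library's counts on the usual per-million scale after TMM scaling, which corrects for differences in library composition. The Vector libraries stood furthest apart, with a chi-square per gene of 17.7 between replicates 1 and 2 and 10.8 between replicates 1 and 3, against 1.63 to 2.81 for the other 7 pairs within a group. The epithelial markers KRT8, KRT18, EPCAM and CDH1 (4 of 5 listed were in the table) summed to between 65.4 and 76.6 CPM before TMM scaling in every library. Most of this was KRT18 and KRT8, since after TMM scaling EPCAM was at 1.35 to 2.28 CPM and CDH1 at 2.86 to 4.01 CPM. Listed markers of leukocytes reached at most 1.31 CPM in sum, those of endothelium 0.872 CPM and of fibroblasts 13.3 CPM, with COL1A2 at 0 in the PLK2 and PLK2(D223N) libraries. Those of microglia and macrophages summed to 2.24 to 2.86 CPM in Vector, 0.678 to 1.81 in PLK2(D223N), where TMEM119 was at 0, and 2.17 to 2.43 in PLK2 libraries, and their part in the results was not tested.

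The genes lie on 6 chromosomes (GRCh38, GENCODE release 29). AURKA (chromosome 20, 56369389 to 56392337, minus strand) and TPX2 (chromosome 20, 31739271 to 31801805, plus strand) share one. BORA is on chromosome 13 (72727749 to 72756198, plus strand) and HMMR on chromosome 5 (163460203 to 163491945, plus strand). AURKB (8204733 to 8210600, minus strand) and BIRC5 (78214186 to 78225636, plus strand) are both on chromosome 17. INCENP is on chromosome 11 (62123973 to 62153163, plus strand) and CDCA8 on chromosome 1 (37692418 to 37709719, plus strand). The last 4030 bases of BORA overlap DIS3, an RNA exosome nuclease gene on the opposite strand, and 8881 bases of HMMR overlap the antisense gene HMMR-AS1. The sources used here do not state whether counting used strand, so reads from such overlaps cannot be told apart. AURKA has processed pseudogenes, AURKAP1 and AURKAP2, on chromosomes 1 and 10, and its reads could in part be shared with them.

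RefSeq promoter windows (GRCh38.p14, 250 bases before to 50 bases after a gene's start) were matched for 5 of the 8 genes, BORA, HMMR, AURKB, INCENP and CDCA8. The 30 bases before the start are shown because they hold the CHR letters in 3 of these genes and not in the other 2. Capitals mark TTTGAA or TTCGAA, and CCAAT or its reverse complement ATTGG.
HMMR (chr5:163460602-163460631, plus strand): gaTTTGAATTTGAAaccggtagggagtgat
CDCA8 (chr1:37692486-37692515, plus strand): tgtggagTTTGAATTGGgtggcggttgact
INCENP (chr11:62123981-62124010, plus strand): ggATTGGctgagccttcagtTTTGAAaatc
BORA (chr13:72727893-72727922, plus strand): tggcccaagacagcgcggaagcggggagtt
AURKB, nearer start (chr17:8210226-8210255, minus strand): gcccagctctcctccccctttctctctaag
AURKA, TPX2 and BIRC5 had no matched window. GENCODE release 29 has transcripts of these genes that start further upstream, so that all 30 bases are exonic in HMMR, CDCA8, INCENP and BORA, and 29 of 30 in AURKB. In BORA all 30 also lie in annotated protein-coding sequence, against 0 in HMMR, CDCA8, INCENP and AURKB.

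HMMR held TTTGAA in 2 adjoining copies that begin 28 and 22 bases before the start, CDCA8 held a copy at 23 bases that runs into an ATTGG, and INCENP held a copy at 10 bases with an ATTGG 28 bases before the start. Of 35116 windows of 27305 genes, 1.34% held TTTGAA or TTCGAA in these 30 bases on either strand, and 3.39% held CCAAT. The stretch of 30 bases was chosen because it holds such letters in HMMR, CDCA8 and INCENP, so their matches cannot be weighed against these shares. BORA held TTTGAA and TTCGAA further out, at 177 and 124 bases before the start. In the 250 bases before the start, 4 of the 5 genes thus held TTTGAA or TTCGAA, against 14.3% of windows, and all 5 held CCAAT, against 32.0%. AURKB held only a CCAAT, on the reverse strand at 153 bases before the nearer start. These matches are letters only, since no binding was measured.

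Compared per transcript length, as TPM, the deposited share of transcripts, TPX2 and BIRC5 were the most abundant of the 8 RNAs and BORA the least. In Vector libraries the levels were 226 ± 5.0 TPM for TPX2, 218 ± 16.4 for BIRC5, 133 ± 2.8 for AURKA, 131 ± 7.7 for AURKB and 104 ± 18.0 for HMMR (SD, n = 3 each). CDCA8 followed at 73.0 ± 5.5 TPM, INCENP at 47.3 ± 1.0 and BORA at 39.3 ± 6.0 (SD, n = 3 each). The libraries of TPX2 and BIRC5 overlapped, as did those of AURKA and AURKB, and the other neighbours in this order were separate. Over all 9 libraries TPX2 lay above 95.2% of tested genes by mean TPM and BORA above 69.9%.

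With PLK2(D223N) the order was the same, and with PLK2 it changed at 1 place. HMMR stood at 147 ± 7.1 TPM and AURKB at 140.3 ± 3.9 TPM in PLK2 libraries (SD, n = 3 each), against 119 ± 2.2 and 134 ± 7.1 with PLK2(D223N), and in PLK2 libraries the values of both genes overlapped. AURKA stood at 168 ± 6.4 TPM in PLK2 libraries, clear of AURKB there, whose highest library was at 144 TPM. The third Aurora kinase, AURKC, known from male germ cells and oocytes, had between 2 and 7 counts in each library and was not tested.

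AURKA RNA was higher with PLK2 than in either other group. It was at 143, 138 and 136 CPM in the Vector libraries, at 139, 141 and 138 CPM with PLK2(D223N), and at 175, 186 and 166 CPM with PLK2. The Vector and PLK2(D223N) libraries overlapped, and every PLK2 library lay above all 6 of them. By edgeR's quasi-likelihood test on all genes, AURKA rose by 0.33 on the log2 scale from PLK2(D223N) to PLK2 (SE 0.05, 95% interval 0.22 to 0.45, adjusted p = 0.0158), or by 25.9%. Between PLK2(D223N) and Vector the difference was 0.00 (SE 0.05, adjusted p = 0.981), with a 95% interval from -0.11 to 0.12. The rise against Vector, 0.34, had a 95% interval of 0.22 to 0.45 (adjusted p = 0.00927). In bulk RNA, more cells in mitosis and more RNA per cell cannot be told apart.

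HMMR was likewise highest with PLK2, and its Vector libraries were spread. It was at 135, 178 and 162 CPM in Vector libraries, at 174, 177 and 173 CPM with PLK2(D223N), and at 224, 239 and 208 CPM with PLK2. Every PLK2 library lay above the other 6, while the PLK2(D223N) libraries fell inside the Vector range. HMMR rose by 0.50 against Vector (SE 0.08, 95% interval 0.33 to 0.67, adjusted p = 0.0105 by edgeR). Against PLK2(D223N) it was at 0.36 (SE 0.08, 95% interval 0.19 to 0.53, adjusted p = 0.147) with all libraries in the fit, and it passed in 5 of 18 other settings, among them DESeq2 (adjusted p = 0.0168), which called 0.206% of genes, and the fit without Vector replicate 2 (0.00508), which called 0.414%. PLK2(D223N) and Vector differed by 0.14 (95% interval -0.03 to 0.32, adjusted p = 0.592).

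**Figure D1:**
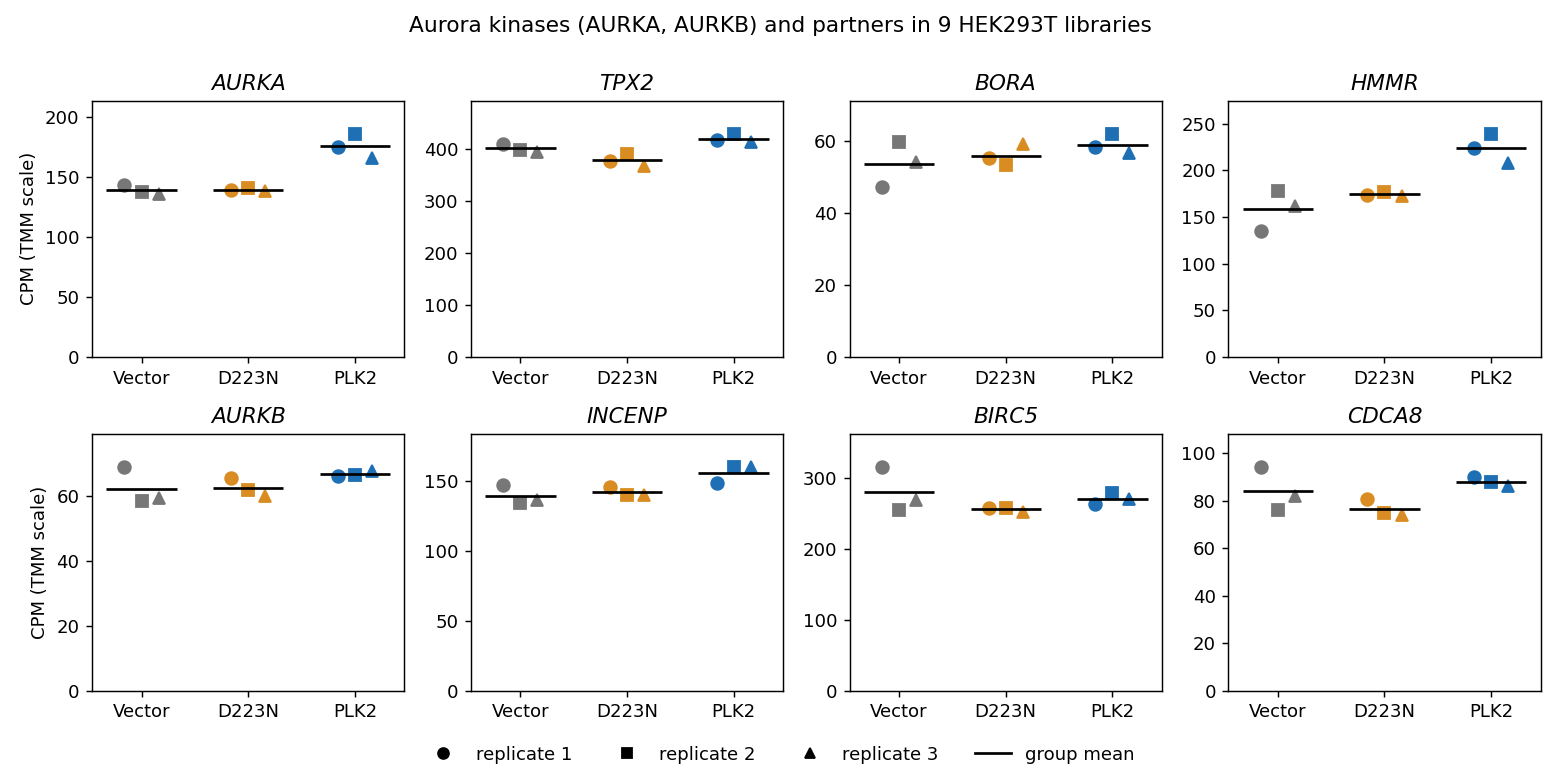
RNA level of each of the 8 genes in CPM on the TMM scale (y axes from 0) by group (x axes); a symbol is a library, its shape gives the replicate number and a line the group mean. The PLK2 libraries of AURKA and HMMR stand above all others, at 166 to 186 CPM and 208 to 239 CPM, while BORA overlaps between every pair of groups.

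Among the PLK2 libraries, replicate 2 had the most PLK2 RNA (26239 CPM), the most AURKA (186 CPM) and the most HMMR (239 CPM), and replicate 3 had the least of each. TPX2 and BORA had the same order there, whereas AURKB was highest in replicate 3, CDCA8 in replicate 1, and INCENP and BIRC5 were lowest in replicate 1. With PLK2(D223N) the order was not the same, since AURKA and HMMR were highest in replicate 2, the library of that group with the least PLK2 RNA (10680 CPM). With 3 libraries a group this is a description only.

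TPX2, the activator that holds Aurora A on the spindle, moved less. It was at 409.9, 399 and 396 CPM in Vector libraries, at 377, 391 and 368 CPM with PLK2(D223N), and at 418, 429 and 414 CPM with PLK2. The groups did not overlap, with PLK2(D223N) lowest and PLK2 highest. The differences were small, at 0.07 for PLK2 vs Vector (SE 0.05, adjusted p = 0.475), -0.09 for PLK2(D223N) vs Vector (SE 0.05, adjusted p = 0.582) and 0.15 for PLK2 vs PLK2(D223N) (SE 0.05, adjusted p = 0.536), and none passed edgeR's test with all libraries.

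BORA, which opens the way for Aurora A to activate PLK1, showed no separation. It was at 47.4, 59.8 and 54.3 CPM in Vector libraries, at 55.3, 53.5 and 59.3 CPM with PLK2(D223N), and at 58.3, 62.0 and 56.7 CPM with PLK2. The groups overlapped in all 3 comparisons, and the difference between PLK2 and Vector, 0.14, had a 95% interval from -0.03 to 0.30 (adjusted p = 0.372). DIS3, the gene that overlaps BORA and was looked at after its values were known, was at 0.25 (SE 0.08, adjusted p = 0.156) in that comparison, with every PLK2 library above every Vector library.

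AURKB, the kinase of the passenger complex, differed little between groups. It was at 68.9, 58.6 and 59.6 CPM in Vector libraries, at 65.6, 61.9 and 60.2 CPM with PLK2(D223N), and at 66.2, 66.6 and 67.8 CPM with PLK2. The highest single value belonged to Vector replicate 1, so PLK2 and Vector overlapped, while PLK2 lay above PLK2(D223N). The difference was 0.10 against Vector (SE 0.07, 95% interval -0.04 to 0.24, adjusted p = 0.439) and 0.10 against PLK2(D223N) (SE 0.07, 95% interval -0.04 to 0.24, adjusted p = 0.913). Between PLK2(D223N) and Vector it was 0.00 (95% interval -0.14 to 0.14).

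INCENP, the scaffold, was the passenger subunit with the largest difference from Vector. It was at 148, 135 and 136 CPM in Vector libraries, at 146, 140.1 and 140.4 CPM with PLK2(D223N), and at 149, 159.9 and 159.9 CPM with PLK2. PLK2 replicate 1 lay just above replicate 1 of both Vector and PLK2(D223N), and the other PLK2 libraries stood clear of both groups. The difference was 0.16 against Vector (SE 0.06, 95% interval 0.04 to 0.28, adjusted p = 0.192) and 0.13 against PLK2(D223N) (SE 0.06, adjusted p = 0.769).

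BIRC5 and CDCA8, the chromatin-binding subunits, were both highest in Vector replicate 1. BIRC5 was at 316, 256 and 269.5 CPM in Vector libraries, at 258, 258 and 253 CPM with PLK2(D223N), and at 264, 279.5 and 271 CPM with PLK2. CDCA8 was at 94.0, 76.1 and 82.1 CPM in Vector libraries, at 80.6, 74.7 and 74.0 CPM with PLK2(D223N), and at 90.0, 87.8 and 86.0 CPM with PLK2. In both genes all PLK2 libraries lay above all PLK2(D223N) libraries, and the Vector libraries overlapped with both groups. BIRC5 was at -0.05 against Vector (SE 0.07, adjusted p = 0.739) and 0.08 against PLK2(D223N) (SE 0.07, adjusted p = 0.931). CDCA8 was at 0.06 against Vector (SE 0.07, adjusted p = 0.652) and 0.20 against PLK2(D223N) (SE 0.07, adjusted p = 0.636).

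In PLK2 vs Vector 2 of the 8 genes were called at an adjusted p below 0.05, against 0.511% of all tested genes, and 3 had an unadjusted p below 0.05, against 16.4%. Their median was 0.12 against -0.00 for all genes, and 7 of 8 lay above 0, as did 48.9% of tested genes. In 4 of the 8, AURKA, TPX2, HMMR and INCENP, every PLK2 library was above every Vector library, as in 10% of tested genes. In PLK2(D223N) vs Vector 0 of 8 were called by edgeR (0.0232% of tested genes), 0 had an unadjusted p below 0.05 (8.53% of tested genes) and DESeq2 called 0 (0.041%). Of the 8, 5 lay above 0, as did 52.7% of tested genes. TPX2 alone was without overlap there, lower with PLK2(D223N), as were 7.21% of tested genes.

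In PLK2 vs PLK2(D223N) AURKA alone of the 8 was called, against 0.162% of tested genes. All 8 lay above 0, as did 47.9% of tested genes, with a median of 0.14 against -0.00. In 7 of the 8, all but BORA, every PLK2 library was above every PLK2(D223N) library, as in 11% of tested genes, and 5 of 8 had an unadjusted p below 0.05, against 6.04%. The 8 genes share libraries and a place in the cell cycle, and are not replicates of one another. They were chosen with earlier results of these data known, so their counts beside the shares of tested genes are a description in every comparison. PLK2 RNA itself was 0.94 higher on the log2 scale in PLK2 than in PLK2(D223N) libraries (SE 0.09, adjusted p = 4.99e-05), so the amount of construct and its kinase domain cannot be told apart.

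**Figure D2:**
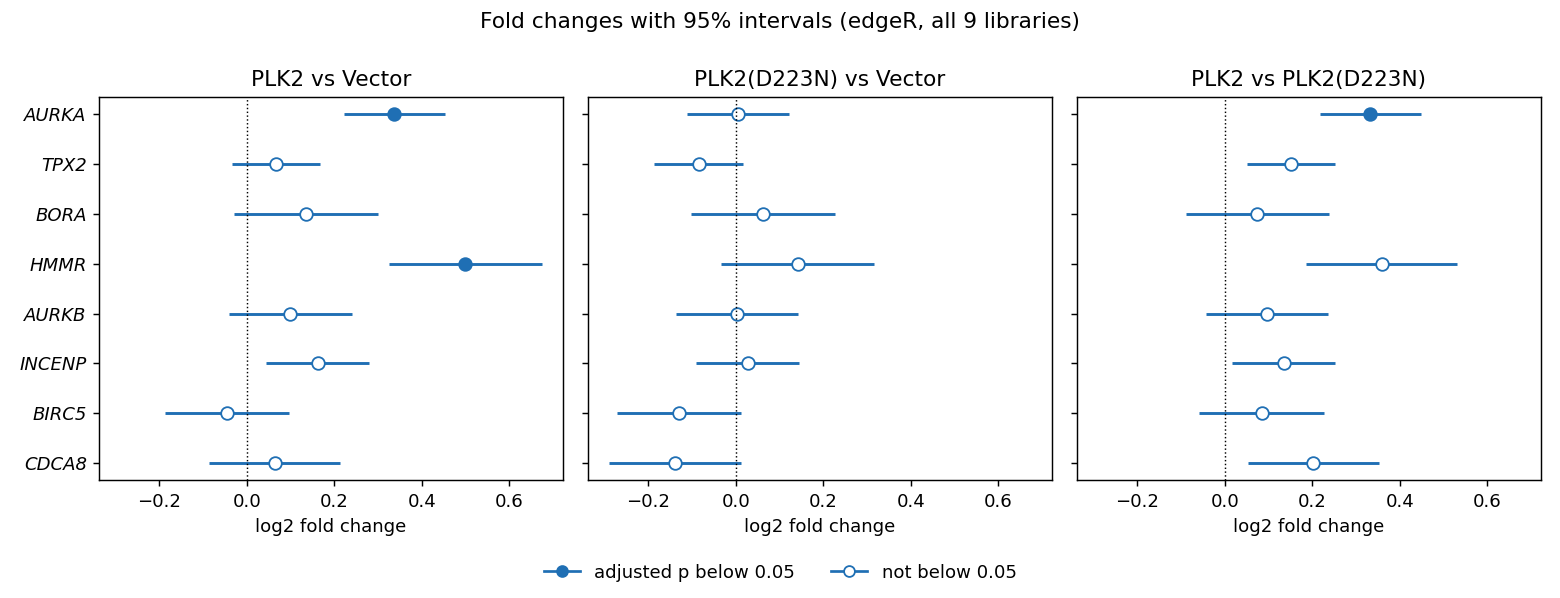
Fold changes of the 8 genes on the log2 scale (x axes) with 95% intervals (lines) in the 3 comparisons, from edgeR over all 9 libraries; filled points have an adjusted p below 0.05. All 8 points lie above 0 in PLK2 vs PLK2(D223N), from 0.07 for BORA to 0.36 for HMMR, and no point is filled in PLK2(D223N) vs Vector.

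The comparison of PLK2 with PLK2(D223N) depended on whether the Vector libraries entered the estimate of the spread. Fitted to the 6 PLK2 and PLK2(D223N) libraries alone, 5 of the 8 genes were called higher, AURKA, HMMR, TPX2, CDCA8 and INCENP, where 3.92% of tested genes were called in either direction. The fold changes were the same to within 0.01 on the log2 scale and the standard errors were smaller, 0.03 in place of 0.05 for AURKA and 0.04 in place of 0.08 for HMMR. The adjusted p by edgeR was 1.76e-11 for AURKA, 1.22e-08 for HMMR, 0.000121 for TPX2, 0.000455 for CDCA8 and 0.00660 for INCENP. BIRC5 (adjusted p = 0.0739), AURKB (0.219) and BORA (0.441) were not called. The same 5 genes were called in the fit without Vector replicate 1 (2.43% of tested genes).

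Leaving out a library also changed calls of AURKA and HMMR. Against PLK2(D223N), AURKA was not called without PLK2 replicate 1 or 2 or any 1 PLK2(D223N) library, with adjusted p from 0.147 to 0.201 by edgeR and fold changes from 0.29 to 0.34. Against Vector, AURKA was not called without Vector replicate 3 (adjusted p = 0.0536), PLK2 replicate 1 (0.0689) or PLK2 replicate 2 (0.105), nor HMMR without PLK2 replicate 1 (0.0686) or 2 (0.115). In a fit to the 6 PLK2 and Vector libraries alone neither was called (adjusted p = 0.0735 for both), where 0.18% of tested genes were. By limma on log2(TPM + 1) HMMR was not called either (adjusted p = 0.103). Without Vector replicate 1, INCENP (0.20, SE 0.04, adjusted p = 0.00111) and AURKB (0.18, SE 0.05, adjusted p = 0.0406) joined AURKA and HMMR against Vector, where 2.79% of tested genes were called, and BIRC5 turned from -0.05 to 0.05.

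**Figure D3:**
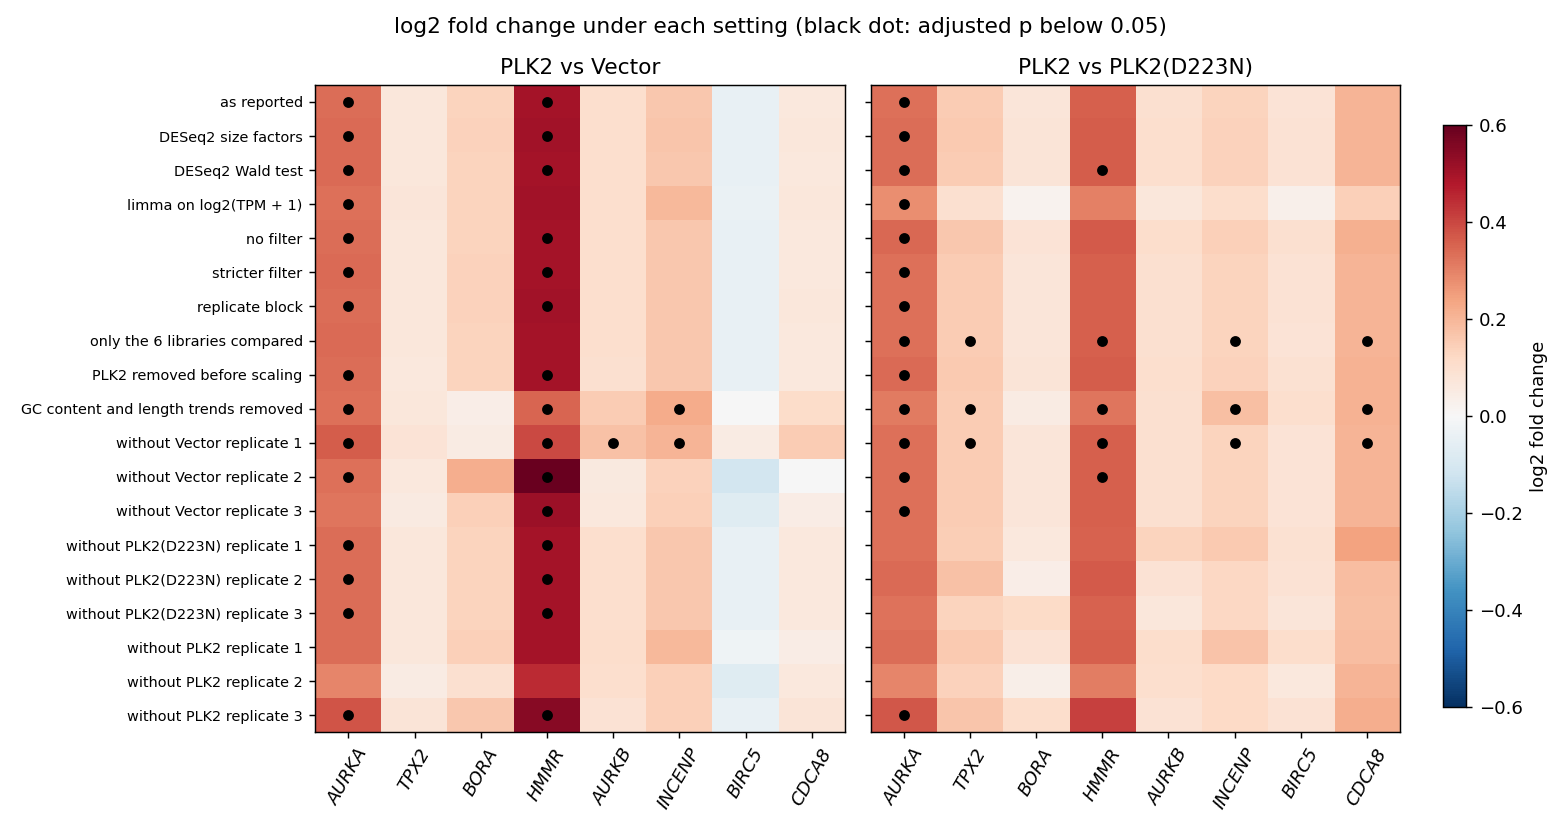
Each cell gives the log2 fold change of a gene (columns) under a setting (rows), on a colour scale from -0.6 to 0.6, in PLK2 vs Vector and PLK2 vs PLK2(D223N); a dot marks an adjusted p below 0.05. AURKA carries a dot in 14 of 18 alternatives against Vector and 13 of 18 against PLK2(D223N), while TPX2, INCENP and CDCA8 gain dots against PLK2(D223N) in 3.

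The spread of the 8 genes within the Vector group went in part with the base composition of their transcripts. HMMR (36.7% GC in its longest transcript) and BORA (41.1%) were lowest in Vector replicate 1, at -0.22 and -0.18 from the group mean on the log2 scale. BIRC5 (52.2% GC), CDCA8 (51.4%) and AURKB (55.6%) were highest there, at 0.18, 0.17 and 0.15. AURKA (46.6%) and TPX2 (46.8%) deviated by 0.05 and 0.03, and INCENP (59.6%) by 0.08. Over all genes the median deviation of Vector replicate 1 was -0.17 under 42% GC and 0.12 over 55% GC, and in Vector replicate 2 it was 0.11 and -0.09. From 42% to 55% GC, where AURKA, TPX2, BIRC5 and CDCA8 fall, it was 0.02 in Vector replicate 1 and -0.01 in Vector replicate 2. BIRC5 and CDCA8 thus deviated by more than the median of their own range. In the PLK2 and PLK2(D223N) libraries these medians stayed between -0.02 and 0.02.

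After removal, library by library, of the trends with GC content and length, the fold change of HMMR against Vector was 0.35 (SE 0.04, adjusted p = 1.28e-05) in place of 0.50, and that of AURKA 0.33 (SE 0.04, adjusted p = 1.28e-05). INCENP was then called higher than Vector at 0.22 (SE 0.04, adjusted p = 0.00183), with 3.08% of tested genes called. Against PLK2(D223N) the same correction gave calls for AURKA, HMMR, TPX2, CDCA8 and INCENP (0.724% of tested genes). HMMR with PLK2(D223N) lay 0.03 from Vector after it, in place of 0.14.

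**Figure D4:**
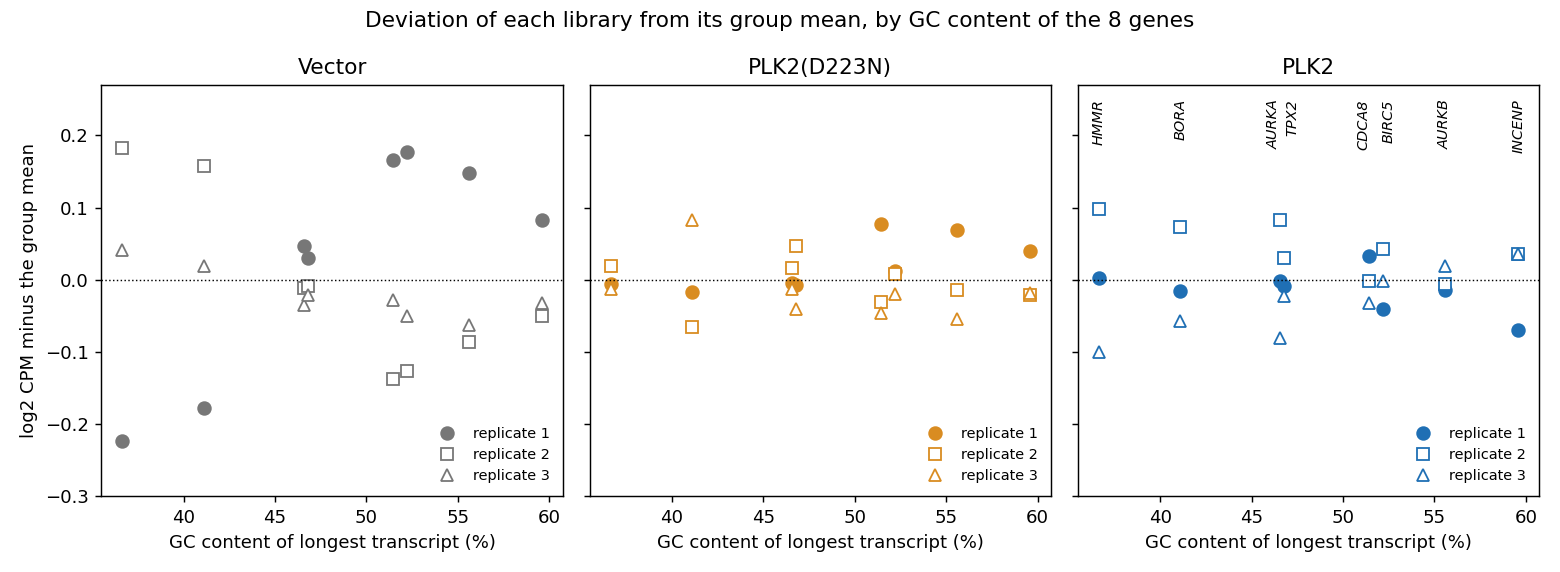
Deviation of each library from its group mean (y axis, log2 CPM) against the GC content of the longest transcript of each of the 8 genes (x axis, percent), in 1 panel per group; symbols give the replicate. In the Vector group replicate 1 runs from -0.22 at HMMR to 0.18 at BIRC5 and replicate 2 runs the other way, while the other groups stay closer to 0, with HMMR in PLK2 replicate 3 the furthest at -0.10.

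Ratios of TPM within a library compare partners with each other. In Vector libraries AURKA to AURKB was 1.02 ± 0.06, with PLK2(D223N) it was 1.03 ± 0.05 and with PLK2 1.20 ± 0.08 (SD, n = 3 each), and every PLK2 library was above the other 6. TPX2 to AURKA was 1.69 ± 0.02, 1.61 ± 0.03 and 1.41 ± 0.05 in the same order, and HMMR to TPX2 was 0.461 ± 0.070, 0.537 ± 0.0098 and 0.619 ± 0.028. Neither ratio overlapped between any pair of groups. In Vector replicates 1, 2 and 3 HMMR to TPX2 was 0.384, 0.522 and 0.478, and trends with GC content were not removed from these TPM values. Within the passenger complex INCENP to AURKB was 0.362 ± 0.013, 0.376 ± 0.0089 and 0.387 ± 0.019, with overlaps between PLK2 and both other groups. BIRC5 to AURKB was 1.67 ± 0.055, 1.56 ± 0.059 and 1.52 ± 0.051, and the Vector libraries lay above all others. CDCA8 to AURKB was 0.558 ± 0.023, 0.516 ± 0.0048 and 0.545 ± 0.015, and the PLK2(D223N) libraries lay below all others. BORA to AURKA was 0.294 ± 0.041, 0.306 ± 0.020 and 0.256 ± 0.0035, and PLK2 lay below PLK2(D223N) and overlapped with Vector. The two-sided exact permutation p was 0.1, the smallest that 3 against 3 libraries allow, for each of the non-overlapping pairs, or 0.162 after adjustment over 21 such tests, so none could pass.

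Genes around the 8 were read from 8 lists chosen by role. The lists were drawn up with earlier results of these data known, so their counts beside the shares of tested genes are a description only. Of 14 activators, spindle partners and substrates of Aurora A, 0 were called in any comparison by edgeR, with a median of 0.07 in PLK2 vs Vector and 0.03 in PLK2 vs PLK2(D223N). At an unadjusted p below 0.05 they numbered 4, 1 and 2 in PLK2 vs Vector, PLK2(D223N) vs Vector and PLK2 vs PLK2(D223N), against 16.4%, 8.53% and 6.04% of all tested genes, and DESeq2 called 0, 0 and 1, against 0.886%, 0.041% and 0.206%. PLK1, the kinase that BORA and Aurora A activate, was at 158 ± 12.5 CPM in the Vector group, at 144 ± 1.2 CPM with PLK2(D223N) and at 172 ± 1.2 CPM with PLK2 (SD, n = 3 each). It was at 0.26 in PLK2 vs PLK2(D223N) (SE 0.06, adjusted p = 0.137), with no overlap, and passed there in the fit to those 6 libraries (adjusted p = 4.31e-09), without Vector replicate 1 (5.00e-07), without Vector replicate 2 (0.0307), with trends in GC and length removed (4.37e-05) and by DESeq2 (0.0168). The difference of PLK1 from Vector, 0.12 (SE 0.06, adjusted p = 0.305), reached the threshold with those trends removed (0.18, adjusted p = 0.00589) and without Vector replicate 1 (0.19, adjusted p = 0.000992). The PLK2 and Vector libraries of PLK1 overlapped. Every PLK2(D223N) library of PLK1 lay below every Vector library, as in 7.21% of tested genes, at -0.13 (SE 0.06, adjusted p = 0.574 by edgeR). DLGAP5 (HURP), a spindle protein bound by Aurora A, was at 0.27 (SE 0.08, adjusted p = 0.120) and KIF11 (Eg5), the plus-end kinesin that pushes the poles apart, at 0.23 (SE 0.10, adjusted p = 0.265) in PLK2 vs Vector. Of 8 regulators of TPX2 and HMMR none was called, with 1, 0 and 1 at an unadjusted p below 0.05, against the same shares, and 0 called by DESeq2. KPNA2, an importin that holds TPX2 inactive in the nucleus, was at 0.12 (SE 0.05, adjusted p = 0.241) and BRCA1, whose complex limits HMMR, at 0.17 (SE 0.09, adjusted p = 0.352).

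Of 16 recruiters and substrates of Aurora B, none passed by edgeR in any comparison, while 9, 1 and 9 had an unadjusted p below 0.05, against 16.4%, 8.53% and 6.04% of all tested genes, and DESeq2 called 3, 0 and 0, where it called 0.886%, 0.041% and 0.206% of all genes. In PLK2 vs Vector 12 of the 16 lay above 0 with a median of 0.18, and in PLK2 vs PLK2(D223N) 14 of 16 with a median of 0.16, against medians of -0.00 over all genes. NDC80, the outer kinetochore protein whose microtubule grip Aurora B loosens, was at 0.33 (SE 0.07, adjusted p = 0.0538), and TTK (MPS1), a checkpoint kinase, at 0.28 (SE 0.07, adjusted p = 0.0958) in PLK2 vs Vector. The fit to the 6 PLK2 and PLK2(D223N) libraries called 10 of the 16 higher, where 3.92% of tested genes were called, among them BUB1, SGO1 and KIF20A, which help to place the passenger complex, and the fits without Vector replicate 1 or 2 called 7 and 9 of them higher against Vector, where 2.79% and 12.7% of tested genes were called.

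Of 15 phosphatase genes none was called by edgeR (5, 0 and 1 at an unadjusted p below 0.05, against 16.4%, 8.53% and 6.04% of tested genes, and 1, 0 and 1 by DESeq2, against 0.886%, 0.041% and 0.206%), and the median was 0.03 in PLK2 vs Vector. CDCA2 (Repo-Man), which targets PP1 to chromatin against Aurora B, was at 0.31 (SE 0.07, adjusted p = 0.0534) against Vector and 0.32 (SE 0.07, adjusted p = 0.112) against PLK2(D223N). PPP2R5C, a PP2A-B56 subunit, was at 0.17 (SE 0.05, adjusted p = 0.178). Of 19 genes for the breakdown of Aurora kinases none was called by edgeR (5, 2 and 3 at an unadjusted p below 0.05, against the same shares, and 0 by DESeq2). FBXW7, a ubiquitin ligase subunit, was at 0.28 (SE 0.07, adjusted p = 0.0879) and FBXO5 (EMI1), an inhibitor of the anaphase-promoting complex, at 0.25 (SE 0.06, adjusted p = 0.0886) against Vector. In PLK2(D223N) vs Vector FBXW7 was at 0.18 (SE 0.07, adjusted p = 0.574) and FBXO5 at 0.10 (SE 0.06, adjusted p = 0.604).

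Of 19 regulators of G2 and M promoters, none was called by edgeR, with 7, 3 and 1 at an unadjusted p below 0.05, against 16.4%, 8.53% and 6.04% of tested genes, and 0 by DESeq2. FOXM1, an activator of AURKA and AURKB transcription, was at 192 ± 11.1 CPM in the Vector group, at 177 ± 0.55 CPM with PLK2(D223N) and at 185 ± 6.2 CPM with PLK2 (SD, n = 3 each), and at -0.05 in PLK2 vs Vector (SE 0.05, adjusted p = 0.628). MYBL2 (B-MYB), its partner, was at -0.06 (SE 0.08, adjusted p = 0.682), and LIN54, the subunit that binds the CHR, at 0.21 (SE 0.08, adjusted p = 0.222). NFYB, a CCAAT-binding subunit, was at 0.27 (SE 0.08, adjusted p = 0.156) and CDKN1A (p21), a repressor of the same promoters through DREAM, at 0.37 (SE 0.12, adjusted p = 0.180). In PLK2(D223N) vs Vector LIN54 was at 0.19, NFYB at 0.15, CDKN1A at 0.26, FOXM1 at -0.12 and MYBL2 at -0.07, none of them called by edgeR. LIN54 was at 0.01 in PLK2 vs PLK2(D223N) (SE 0.08, adjusted p = 0.991).

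Of 27 other G2 and M genes, 4 rose in PLK2 vs Vector, 0 fell and 23 were not called, where 0.511% of tested genes were called. The median was 0.17, and 26 of 27 lay above 0, as did 48.9% of tested genes. The 4 that rose were HJURP, the chaperone of centromeric CENP-A (0.35, SE 0.05, adjusted p = 0.00762), the kinesin KIF18A (0.53, SE 0.09, adjusted p = 0.0105), the kinetochore kinesin CENPE (0.61, SE 0.11, adjusted p = 0.0182) and TOP2A, the topoisomerase that untangles sister chromatids (0.45, SE 0.09, adjusted p = 0.0408). All 4 lost the call without PLK2 replicate 1, 2 or 3, with adjusted p up to 0.260 for TOP2A, CENPE and TOP2A also without Vector replicate 3 (0.0536 and 0.0884), and TOP2A without any 1 PLK2(D223N) library (up to 0.0884). In the fit to the 6 PLK2 and Vector libraries none of the 4 was called (adjusted p of 0.0538 for HJURP, 0.0735 for KIF18A, 0.0984 for CENPE and 0.151 for TOP2A). By limma KIF18A (0.125), CENPE (0.143) and TOP2A (0.171) were not called, nor was CENPE with no filter (0.0701). With trends in GC and length removed all 4 were called (3.08% of tested genes). HJURP was then at 0.36, KIF18A at 0.40, CENPE at 0.46 and TOP2A at 0.35. In PLK2(D223N) vs Vector CENPE was at 0.28 (SE 0.11, adjusted p = 0.574). Without Vector replicate 2, CENPE (adjusted p = 0.0325) and TOP2A (0.0497) passed there by edgeR, and KIF18A (0.0551) and HJURP (0.553) did not. Against PLK2(D223N), where 0.162% of tested genes were called, HJURP alone of the 27 was called, at 0.38 (SE 0.05, adjusted p = 0.00490), though not without PLK2(D223N) replicate 1 (0.0640) or 2 (0.0636) or PLK2 replicate 2 (0.0575). Of the 27, 26 lay above 0 there, as did 47.9% of tested genes, with a median of 0.14. In 23 every PLK2 library was above every PLK2(D223N) library, as in 11% of tested genes. At an unadjusted p below 0.05 were 14, against 6.04%. Fitted to the 6 PLK2 and PLK2(D223N) libraries alone, HJURP, KIF18A, CENPE and TOP2A were called (3.92% of tested genes). They were also called with trends in GC and length removed (0.724%) and without Vector replicate 1 (2.43%). Of 26 genes of G1/S and DNA replication none was called by edgeR (2, 3 and 0 at an unadjusted p below 0.05, against 16.4%, 8.53% and 6.04% of tested genes, and 0 by DESeq2), with a median of -0.01 in PLK2 vs Vector. RRM2, a ribonucleotide reductase subunit, was at -0.14 (SE 0.05, adjusted p = 0.221) and CCNE1, cyclin E1, at -0.15 (SE 0.07, adjusted p = 0.291). In PLK2 vs PLK2(D223N) 22 of these 26 genes lay above 0, as did 47.9% of tested genes, with a median of 0.05. In 9 of them every PLK2 library was above every PLK2(D223N) library, as in 11% of tested genes, and in 1 below. In PLK2(D223N) vs Vector 4 of the 26 lay above 0, as did 52.7% of tested genes.

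Across the 9 libraries, the profile of AURKA was most like those of TNFRSF9 (Pearson r = 0.97), DHRS2 (0.97), NBR1 (0.97), PRC1 (0.96) and KPNA2 (0.96), out of 12296 genes compared, each averaging 1 CPM or more. The 9 points fall into the PLK2 libraries and the rest, so the coefficients mostly restate that difference. PRC1, the midzone bundling protein, is a listed Aurora B substrate, and KPNA2 a listed regulator of TPX2. PRC1 was at 0.17 in PLK2 vs Vector (SE 0.05, adjusted p = 0.139) and at 0.17 in PLK2 vs PLK2(D223N) (SE 0.05, adjusted p = 0.438), with no overlap in either. KPNA2 was at 0.15 in PLK2 vs PLK2(D223N) (SE 0.05, adjusted p = 0.50). The profile of AURKB was most like CSNK1E (r = 0.93), SESN2 (0.91), FAM53C (0.90), BAX (0.90) and OTUD7B (0.90), none of them on any of the lists.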

How the data were processed

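Polyadenylated RNA of 9 libraries was sequenced, per the labels' protocols. Per the submitters' processing notes, Bowtie2, RSEM 1.3.1, DESeq2 1.4.5 and build GRCh38.p13 were used; annotation and strand setting are not given there. The authors deposited estimated counts per gene, of which 87.1% to 88.5% per library lay within 0.005 of a whole number. Per the file headers, the deposited TPM and FPKM values were scaled per transcript length and library. A further 9 per-library columns were left out.

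Groups came from the labels; 1 Vector title has transposed letters. Counts were rounded, filtered by filterByExpr and scaled by TMM, and all 9 libraries were fitted in edgeR 4.0.16 (robust quasi-likelihood, R 4.3.3), with Benjamini-Hochberg adjustment over 12924 genes and a call at adjusted p below 0.05. Two-sided p-values, 95% intervals and 18 alternative settings were computed, among them DESeq2 1.42.0, limma 3.58.1 on log2(TPM + 1) and loess trends (span 0.3) with GC and length, known for 99.36% of tested genes. The fit was run on simulated data with larger changes than that of AURKA here, so that run says nothing of changes as small. Depth per library limits low genes, and intervals cover the spread between libraries.

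Members and lists were chosen with earlier results of these data known. Named genes were the 8, PLK2, AURKC, PLK1, FOXM1, MYBL2, LIN54, per list the called genes (up to 4 per comparison) and the 2 with the smallest p in PLK2 vs Vector, and the 5 most like AURKA and AURKB. DIS3, the promoter windows of 30 and 120 bases, BUB1, SGO1 and KIF20A were chosen after values were seen. Promoters were RefSeq windows read on both strands.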

Additional observations from a re-analysis of the deposited data

How the results depend on the processing

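Genes called numbered 66 in PLK2 vs Vector, 3 in PLK2(D223N) vs Vector and 21 in PLK2 vs PLK2(D223N). In PLK2 vs Vector they were 116 by DESeq2, 19 by limma, 136 with no filter, 23 from the 6 libraries compared and 396 once trends with GC and length were taken out, where 262 were higher and 134 lower against 62 and 4 before. In PLK2(D223N) vs Vector they were 7 by DESeq2, 5 with no filter and 8 with those trends removed. In PLK2 vs PLK2(D223N) they were 11 by limma, 35 with no filter, 502 from the 6 libraries and 93 with trends removed. Leaving out 1 library gave 13 (without PLK2 replicate 2) to 1656 (without Vector replicate 2), 2 to 347 and 9 to 317 (without Vector replicate 1) in the same order; the cause was not tested.

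Values near 0 changed sign. In PLK2 vs Vector FOXM1 was at 0.0036 with trends removed, and leaving out 1 library gave BIRC5 from -0.108 to 0.0476, CDCA8 from -0.0030 to 0.15 and MYBL2 from -0.123 to 0.0626. In PLK2(D223N) vs Vector HJURP was at 0.0201 by limma, AURKA at -0.0050 with no filter and -0.00089 with PLK2 removed before scaling, and AURKB at -0.0071 with no filter, -0.00065 from the 6 libraries and -0.0030 with PLK2 removed. BORA was at -0.0067 there with trends removed. Leaving out 1 library gave AURKA from -0.0136 to 0.0286, BORA from -0.0226 to 0.141 and AURKB from -0.0398 to 0.0813.

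A replicate block gave 76, 4 and 20 calls in the 3 comparisons and changed no call of the 8 genes, while NDC80 passed in PLK2 vs Vector (adjusted p = 0.0355). Deviations of same-numbered libraries correlated at -0.107 to 0.127, so the numbers were not taken as pairs. The order of the 8 genes by FPKM was that by TPM.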

Other observations

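Genes with TTTGAA or TTCGAA in the 120 bases before a RefSeq start, a window chosen after values were seen, were set beside genes without. The 587 tested genes that held either had a median of 0.04 in PLK2 vs Vector, with 58.6% above 0, against -0.01 and 48.1% for 9883 genes that held neither. Of the first 11 were called higher and 0 lower (1.87%), and of the second 40 higher and 4 lower (0.445%). The median GC content of their transcripts was 45.0% and 48.0%, and once trends with GC and length were taken out the medians were -0.01 and -0.02, with 6.67% and 2.94% called. In PLK2 vs PLK2(D223N) the medians were 0.01 and -0.00 and the shares called 0.170% and 0.152%, or 2.22% and 0.649% once those trends were taken out. In PLK2(D223N) vs Vector the medians were 0.03 and 0.01, with 59.1% and 52.0% above 0. No test was made of these differences.

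AURKC had 3 to 5 counts in Vector, 2 to 3 in PLK2(D223N) and 5 to 7 in PLK2 libraries.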
